A study of Mus musculus with 36 samples.

Results

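The platelet-derived growth factor (PDGF) genes of the mouse are the 4 ligand genes Pdgfa, Pdgfb, Pdgfc and Pdgfd and the 2 receptor genes Pdgfra and Pdgfrb. These 6 genes were taken by symbol from the 52636 genes of a table of RNA-seq counts, without use of their values, and all 6 were among the 15330 genes that passed the filter on low counts. They were compared between S100β-GFP+;NG2-dsRed+ perisynaptic Schwann cells (PSCs, labelled NG2DsRed+/S100GFP+), S100β-GFP+ cells (labelled S100GFP+) and NG2-dsRed+ cells (labelled NG2DsRed+).

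PDGF ligands are secreted as dimers and act on neighbouring cells through receptor tyrosine kinases. PDGF-A acts through the α receptor, PDGF-B through both receptors, PDGF-C mainly through the α receptor and PDGF-D mainly through the β receptor, and PDGF-C and PDGF-D have to be cut by proteases before they bind. In skeletal muscle the α receptor marks mesenchymal cells that can become fibroblasts or adipocytes, and the β receptor marks pericytes and vascular smooth muscle cells, which PDGF-B of the endothelium recruits to vessels.

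The cells came from diaphragm, pectoralis, forelimb and hindlimb muscles of S100β-GFP;NG2-dsRed transgenic mice, in which GFP is driven by the promoter of S100b and dsRed by that of Cspg4, the gene of the NG2 proteoglycan. All 3 groups carried both transgenes, and the labels name no treatment. Each library held the cells sorted by FACS from 1 mouse, and the table used here has 9 libraries of PSCs, 10 of NG2-dsRed+ cells and 8 of S100β-GFP+ cells, where the labels name 12 per group. The series' design text counts 7 libraries of S100β-GFP+ cells, so that 1 of the 8 used here may be one that the study left out. Which one is not stated, and leaving out each in turn changed 1 call of a member, that of Pdgfb below. The labels start every age at P15, but the end they give rises by 1 day from each sample to the next over the first 26 samples, from P21 to P46, stays there for the rest, and may be a fill error. The study's methods describe juvenile mice whose ages stop at about the lowest of these ends, and age was not used as a term. Cells with either promoter active enter the sort whatever their lineage, and the groups are therefore defined by fluorescence alone.

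Markers were read beside the labels. Total counts per library were between 5221655 and 9592875, of which Gm15564, Gm23935 and Lars2 together (the Lars2 share) held between 3.64% and 40.0%. The median share was 17.8% in PSC libraries (3.64% to 36.6%), 32.6% in S100β-GFP+ libraries (19.5% to 39.1%) and 30.4% in NG2-dsRed+ libraries (12.5% to 40.0%). As a term of a fit, the share is therefore partly tied to the groups compared. Cspg4 was at 689 ± 132 CPM (counts per 1000000, SD, n = 9) in PSCs and 665 ± 138 CPM (n = 10) in NG2-dsRed+ cells, against 71.0 ± 42.3 CPM (n = 8) in S100β-GFP+ cells. S100b was at 255 ± 198 CPM in PSCs, 29.4 ± 10.1 CPM in S100β-GFP+ cells and 6.54 ± 4.90 CPM in NG2-dsRed+ cells. The summed CPM of 8 Schwann lineage markers was 1728 to 2885 in PSC libraries, 94.2 to 423 in S100β-GFP+ libraries and 46.4 to 98.0 in NG2-dsRed+ libraries. Fibroblast markers (9 genes) summed to between 25329 and 55703 CPM in S100β-GFP+ libraries, against 1547 to 4658 in PSC libraries and 2902 to 24917 in NG2-dsRed+ libraries. Macrophage and leukocyte markers (10 genes) summed to between 1337 and 12754 CPM in S100β-GFP+ libraries, against 38.1 to 570.1 CPM in PSC libraries and 15.1 to 79.9 CPM in NG2-dsRed+ libraries. Of the highest PSC sum, Lyz2 alone held 566 CPM, and 6 of these 10 markers had a mean under 1 CPM in PSCs. The S100β-GFP+ libraries, which the study took as Schwann cells, thus held high levels of markers of other cell types, and they are called by their fluorescence here. Myelinating Schwann cell markers (8 genes) summed to between 2572 and 3497 CPM in PSC libraries, 1553 and 3736 CPM in S100β-GFP+ libraries and 306 and 1069.7 CPM in NG2-dsRed+ libraries. Mural markers (11 genes of pericytes and smooth muscle) summed to between 6738 and 14634 CPM in NG2-dsRed+ libraries and to at most 1484 CPM in any library of the other groups. Endothelial markers (10 genes) summed to between 1547 and 3586 CPM in NG2-dsRed+ libraries, 141 and 2893 CPM in S100β-GFP+ libraries and 179 and 768 CPM in PSC libraries. Muscle markers (8 genes) summed to at most 1563 CPM, in a PSC library, and platelet markers (5 genes) to at most 75.6 CPM, in an S100β-GFP+ library. None of these markers was at 0 in every library of any group. In bulk RNA, fewer cells of a type and less RNA per cell cannot be told apart.

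Pdgfa is at 138976014 to 138997370 on the minus strand of chromosome 5 (GRCm38) and the table counts all of its transcripts together. In the GENCODE M21 annotation, 1 of its 4 coding transcripts, Pdgfa-201, holds an alternative exon of 69 bases (exon 6) whose coding part is at chr5:138978638-138978690. This stretch is shown because it tells the long form of PDGF-A, which ends in a basic tail that keeps it near the cell surface, from the short form, and the gene counts cannot. Pdgfa was also a target of qPCR in the same work, and its primers are shown because they read the transcripts in another way. The forward primer matched 4 of 4 coding transcripts and the reverse primer 3 of 4, all but Pdgfa-201. The reverse primer spans an exon junction, with 10 bases before and 12 bases after it, and the capitals mark those 12 bases, written 5′ to 3′ on the primer.
Pdgfa-201 exon 6, coding part, minus strand: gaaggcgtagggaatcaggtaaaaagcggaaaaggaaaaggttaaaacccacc
Pdgfa forward primer: ggtggccaaagtggagtatgt
Pdgfa reverse primer: CTCACCTCACATctgtctcctc

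Pdgfa stood out among the ligands in PSCs. Its level was between 499.7 and 1098 CPM in the 9 PSC libraries (median 698), between 11.0 and 35.5 CPM in the 8 S100β-GFP+ libraries (median 17.5) and between 38.8 and 66.4 CPM in the 10 NG2-dsRed+ libraries (median 52.3). The lowest PSC library was above the highest library of either other group, and every S100β-GFP+ library was below every NG2-dsRed+ library. The means were 752 ± 192 CPM (SD, n = 9) in PSCs, 19.6 ± 7.68 CPM (n = 8) in S100β-GFP+ cells and 51.4 ± 8.73 CPM (n = 10) in NG2-dsRed+ cells.
By edgeR's quasi-likelihood test with Benjamini-Hochberg adjustment over all genes, Pdgfa in PSCs was 38.5-fold that of S100β-GFP+ cells, a log2 fold change of 5.27 ± 0.23 (SE, adjusted p = 4.5e-16). It was 14.6-fold higher than in NG2-dsRed+ cells (log2 fold change 3.87 ± 0.20, adjusted p = 1.81e-15). NG2-dsRed+ cells held 2.63-fold more Pdgfa than S100β-GFP+ cells, and the log2 fold change of S100β-GFP+ against NG2-dsRed+ cells was -1.39 ± 0.19 (adjusted p = 1.15e-06). The study chose Pdgfa as PSC-enriched on these libraries, so its direction in PSCs here is not independent evidence. By qPCR on additional replicates of each cell type, the study also reports Pdgfa as highly enriched in PSCs.
Among the 15311 genes with a known exon length, Pdgfa had the rank 127 in PSCs by mean CPM per kilobase of merged exons, the rank 2088 in NG2-dsRed+ cells and the rank 5012 in S100β-GFP+ cells. An antisense gene on the plus strand, 6330403L08Rik, shares 813 exon bases with Pdgfa, and whether counting used strand is not given in these sources. Its level was 59.7 ± 44.5 CPM in PSCs, 4.28 ± 2.03 CPM in S100β-GFP+ cells and 8.51 ± 1.96 CPM in NG2-dsRed+ cells. Reads of the shared bases could belong to either gene, and their part in the Pdgfa counts was not tested.

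**Figure D1:**
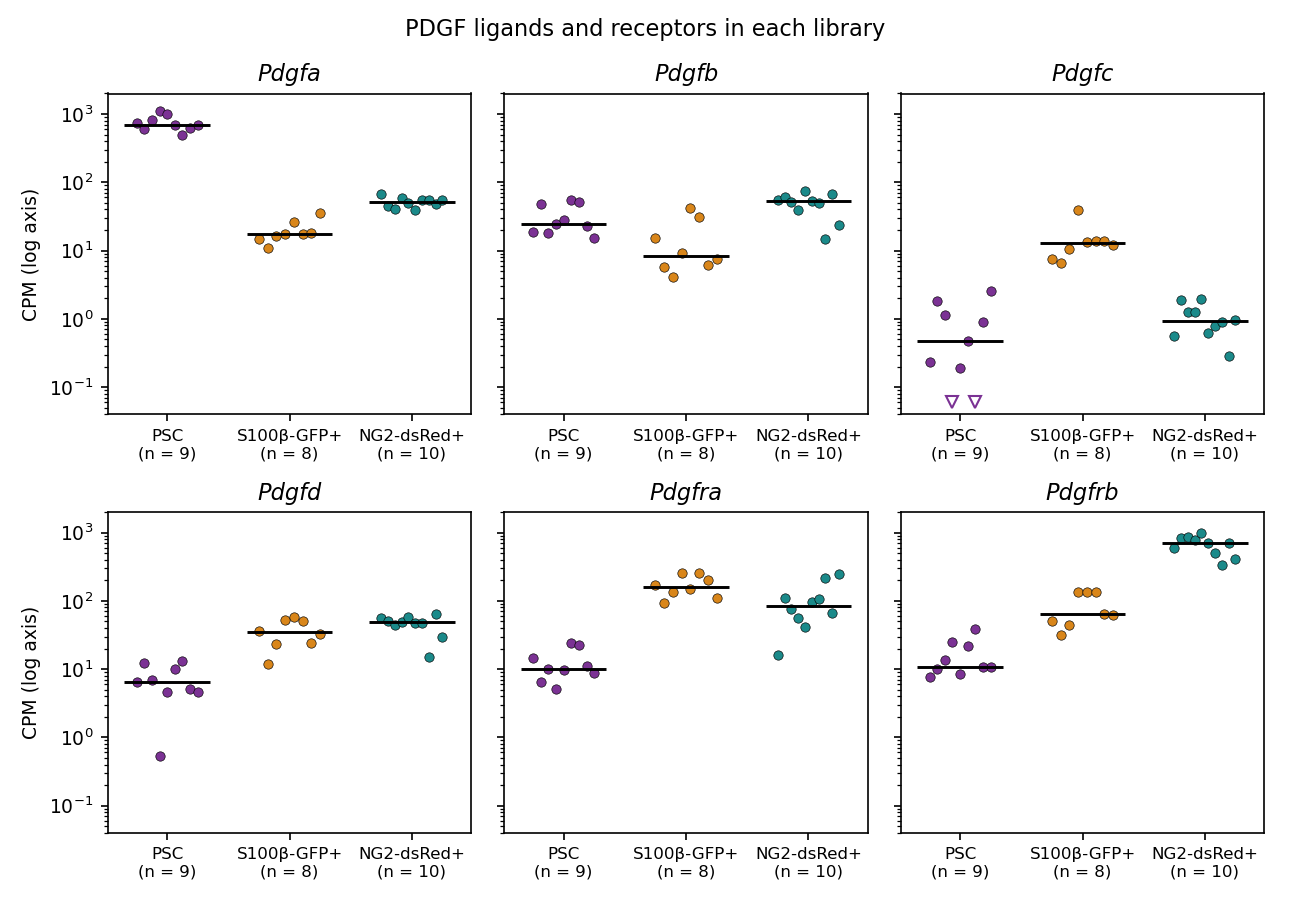
TMM-normalized CPM (log axis) of the 6 PDGF genes, with 1 point per library, grouped into PSC (9), S100β-GFP+ (8) and NG2-dsRed+ (10) libraries. Black lines are medians and open triangles at the bottom are the 2 PSC libraries with 0 counts of Pdgfc. Among the points of Pdgfa those of PSCs lie above both other groups, and among the points of Pdgfrb those of NG2-dsRed+ cells do.

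Pdgfb, which encodes the ligand of both receptors and is made by endothelium and platelets, was the second ligand of PSCs. The gene is at 79995874 to 80014977 on the minus strand of chromosome 15. It was at 15.4 to 55.3 CPM in PSC libraries (median 24.7), 4.15 to 41.4 CPM in S100β-GFP+ libraries (median 8.36) and 14.9 to 75.5 CPM in NG2-dsRed+ libraries (median 52.4). The groups overlapped in each pairing, with 3 of 9 PSC libraries above every S100β-GFP+ library.
The mean of 31.3 ± 15.7 CPM in PSCs was 2.10-fold that of S100β-GFP+ cells by the edgeR fit (15.0 ± 13.7 CPM, log2 fold change 1.07 ± 0.40, adjusted p = 0.03). This call was lost with only these groups in the fit (adjusted p = 0.0628) and without any 1 of 7 libraries (PSC 6, 23 or 31, S100β-GFP+ 3, 14, 27 or 33), where the adjusted p was at most 0.0628. It was larger without S100β-GFP+ libraries 14, 17 and 22 (log2 fold change 2.04, adjusted p = 0.000109) and with the Lars2 share as a term of the fit (1.83, adjusted p = 4.31e-05). The libraries left out had the highest endothelial marker sums of their group, and 17 and 22 its highest Pdgfb. Leaving them out is therefore not a neutral check. PSC libraries 6, 23 and 31 had the highest Pdgfb of their group (47.6, 55.3 and 51.8 CPM). They also had its highest Lars2 shares (31.5%, 36.6% and 31.6%), and whether the 2 are linked was not tested.
Against NG2-dsRed+ cells, at 49.1 ± 18.6 CPM, Pdgfb did not pass the threshold in PSCs (log2 fold change -0.65 ± 0.37, edgeR adjusted p = 0.162), and its log2 fold change was -0.06 with the Lars2 share as a term. It was 3.29-fold lower in S100β-GFP+ than in NG2-dsRed+ cells (log2 fold change -1.72 ± 0.40, adjusted p = 0.00122, and -2.66 without S100β-GFP+ libraries 14, 17 and 22). Within S100β-GFP+ cells, libraries 17 and 22 had the highest Pdgfb (41.4 and 30.6 CPM) and the highest endothelial marker sums (2893 and 1600 CPM), with the other libraries at no more than 15.4 CPM of Pdgfb.

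Pdgfc, whose product needs cleavage by tissue plasminogen activator or a like protease, was a transcript of the S100β-GFP+ libraries. The gene is at 81036416 to 81214040 on the plus strand of chromosome 3. It was at 6.62 to 39.3 CPM there (median 12.8), against 0 to 2.53 CPM in PSC libraries (median 0.470) and 0.283 to 1.93 CPM in NG2-dsRed+ libraries (median 0.942). No S100β-GFP+ library overlapped either other group, and PSC and NG2-dsRed+ libraries overlapped each other.
PSCs held 68 counts of Pdgfc over 9 libraries, 2 of them at 0, and NG2-dsRed+ cells also held 68 counts, over 10 libraries. Pdgfc was 17.3-fold lower in PSCs than in S100β-GFP+ cells by edgeR (log2 fold change -4.11 ± 0.56, adjusted p = 4.1e-07) and 13.9-fold higher in S100β-GFP+ than in NG2-dsRed+ cells (3.80 ± 0.53, adjusted p = 1.34e-06). It passed the filter of 1.44 CPM in at least 8 libraries only through the 8 S100β-GFP+ libraries. This favoured a difference of Pdgfc from them in advance, so these calls are not separate evidence. Without S100β-GFP+ libraries 14, 17 and 22 its log2 fold change in PSCs was -3.52 (adjusted p = 2.8e-05). Between PSCs and NG2-dsRed+ cells it did not pass the threshold (log2 fold change -0.31 ± 0.53, adjusted p = 0.669). At these counts and this standard error, a difference larger than that estimate could also have been missed.

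Pdgfd, the ligand of the β receptor that is activated by urokinase, was low in PSCs. The gene is at 6168584 to 6378850 on the plus strand of chromosome 9. It was at 0.526 to 13.2 CPM in PSC libraries (median 6.39), 11.7 to 58.2 CPM in S100β-GFP+ libraries (median 34.4) and 14.9 to 63.5 CPM in NG2-dsRed+ libraries (median 48.3). Every PSC library was below every NG2-dsRed+ library, and 7 of 9 were below every S100β-GFP+ library.
By edgeR, Pdgfd was 5.09-fold lower in PSCs (7.06 ± 4.03 CPM) than in S100β-GFP+ cells (36.1 ± 16.4 CPM), with a log2 fold change of -2.35 ± 0.36 (adjusted p = 3.33e-06). It was 6.52-fold lower than in NG2-dsRed+ cells (46.2 ± 14.3 CPM, log2 fold change -2.70 ± 0.35, adjusted p = 2.94e-07). The S100β-GFP+ and NG2-dsRed+ libraries overlapped and their difference did not pass the threshold (log2 fold change -0.36 ± 0.34, adjusted p = 0.462).

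Pdgfra, the receptor of PDGF-A, was lowest in the cells in which Pdgfa was highest. The gene is at 75152292 to 75198215 on the plus strand of chromosome 5. Its level was between 5.08 and 24.4 CPM in PSC libraries (median 10.1), between 93.7 and 258 CPM in S100β-GFP+ libraries (median 159) and between 16.2 and 246 CPM in NG2-dsRed+ libraries (median 84.8). PSCs and S100β-GFP+ cells did not overlap, whereas 2 of the 9 PSC libraries were above NG2-dsRed+ library 2, the lowest of its group.
Pdgfra was 13.7-fold lower in PSCs (12.5 ± 6.80 CPM) than in S100β-GFP+ cells (171 ± 62.6 CPM) by edgeR (log2 fold change -3.78 ± 0.42, adjusted p = 9.58e-09) and 8.17-fold lower than in NG2-dsRed+ cells (102 ± 73.8 CPM, -3.03 ± 0.39, adjusted p = 2.53e-07). The difference between S100β-GFP+ and NG2-dsRed+ cells did not pass the threshold (log2 fold change 0.74 ± 0.37, adjusted p = 0.124).
NG2-dsRed+ libraries 28 and 35 had the highest Pdgfra of their group (216 and 246 CPM) and the highest fibroblast marker sums (24917 and 20714 CPM). Without both, an alternative chosen after these values were seen, Pdgfra was higher in S100β-GFP+ than in NG2-dsRed+ cells (log2 fold change 1.33, adjusted p = 0.0026), and the fall in PSCs against NG2-dsRed+ cells was -2.42 (adjusted p = 1.21e-06). Leaving out library 28 alone (adjusted p = 0.0416) or library 35 alone (adjusted p = 0.0278) also took the first of these past the threshold.

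Pdgfrb, the receptor of pericytes and vascular smooth muscle, was the leading PDGF gene of NG2-dsRed+ cells. The gene is at 61045150 to 61085061 on the plus strand of chromosome 18. It was at 335 to 999 CPM in NG2-dsRed+ libraries (median 702), 31.5 to 136 CPM in S100β-GFP+ libraries (median 63.2) and 7.65 to 38.9 CPM in PSC libraries (median 10.8). No NG2-dsRed+ library overlapped another group, and PSC library 31, the highest of its group, was the only one above the lowest S100β-GFP+ library.
By edgeR, Pdgfrb was 41.4-fold lower in PSCs (16.3 ± 10.3 CPM) than in NG2-dsRed+ cells (671 ± 210.2 CPM), with a log2 fold change of -5.37 ± 0.38 (adjusted p = 1.64e-12). It was 5.08-fold lower than in S100β-GFP+ cells (82.4 ± 45.3 CPM, log2 fold change -2.34 ± 0.34, adjusted p = 1.3e-06), and 8.15-fold lower in S100β-GFP+ than in NG2-dsRed+ cells (-3.03 ± 0.35, adjusted p = 6.09e-08).
The S100β-GFP+ libraries were uneven, with libraries 14, 17 and 22 between 134 and 136 CPM of Pdgfrb and the other 5 between 31.5 and 63.6 CPM. Without these 3 libraries the log2 fold change of PSCs against S100β-GFP+ cells was -1.59 (adjusted p = 0.000145) and that of S100β-GFP+ against NG2-dsRed+ cells was -3.75 (adjusted p = 8.1e-09). With the Lars2 share as a term the first was -1.74 (adjusted p = 2.9e-06).

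**Figure D2:**
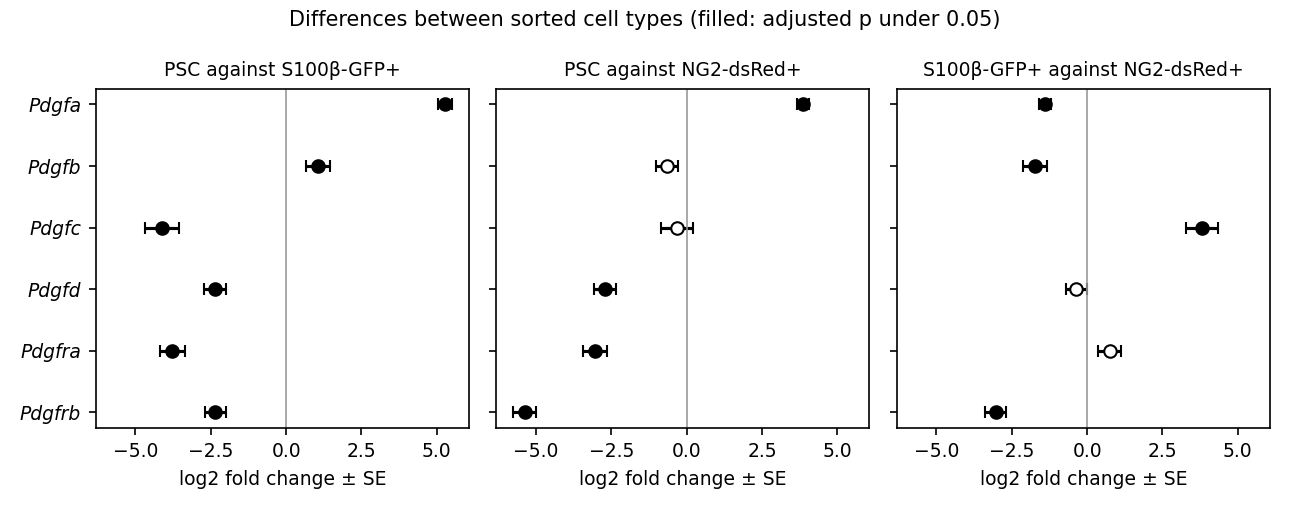
log2 fold changes (points) and their standard errors (bars) of the 6 PDGF genes in the edgeR fit of 27 libraries, for PSCs against S100β-GFP+ cells, PSCs against NG2-dsRed+ cells and S100β-GFP+ against NG2-dsRed+ cells. Filled points had an adjusted p under 0.05, and in PSCs Pdgfa was higher and both receptors were lower than in either other group.

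Of the 6 genes, 2 were higher and 4 were lower in PSCs than in S100β-GFP+ cells, in a comparison in which 47.0% of all genes tested were called (22.9% higher and 24.1% lower). For Pdgfc, 1 of these 4, the filter had favoured that difference in advance, so its call is not separate evidence. Between PSCs and NG2-dsRed+ cells 1 was higher, 3 were lower and 2 did not pass, where 44.0% of all genes were called (20.9% higher and 23.1% lower). Between S100β-GFP+ and NG2-dsRed+ cells 1 was higher, 3 were lower and 2 did not pass, where 33.3% of all genes were called (18.1% higher and 15.2% lower). The 1 higher was Pdgfc, and the filter had favoured that difference in advance too. The comparisons share libraries, so these counts do not stand apart from one another.
Separation of the groups was less common than a call. Every PSC library was above every S100β-GFP+ library for 1 member and below for 2 (Pdgfra and Pdgfc), against 5.24% and 10.3% of all genes. Every PSC library was above every NG2-dsRed+ library for 1 member and below for 2, against 5.08% and 8.83% of all genes. Every S100β-GFP+ library was above every NG2-dsRed+ library for 1 member (Pdgfc) and below for 2, against 7.21% and 4.38% of all genes. Pdgfc passed the filter only through the S100β-GFP+ libraries, so the filter favoured its separation from both other groups. The median log2 fold change of all genes was 0.04, 0.02 and -0.02 in the 3 comparisons.

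To compare the genes with one another, levels were divided by the length of their merged exons. In PSCs the order by CPM per kb was Pdgfa (241 ± 61.4, SD, n = 9), Pdgfb (7.53 ± 3.78), Pdgfrb (2.97 ± 1.88), Pdgfd (2.24 ± 1.28), Pdgfra (1.25 ± 0.678) and Pdgfc (0.159 ± 0.173). Pdgfa was 32.0-fold above the next gene and above it in 9 of 9 libraries, whereas the neighbours from Pdgfb to Pdgfra had overlapping ranges.
In NG2-dsRed+ cells the order by CPM per kb was Pdgfrb (122 ± 38.4, n = 10), Pdgfa (16.5 ± 2.80), Pdgfd (14.6 ± 4.53), Pdgfb (11.8 ± 4.47), Pdgfra (10.2 ± 7.37) and Pdgfc (0.206 ± 0.107). Pdgfrb stood 7.43-fold above Pdgfa with no overlap of their ranges, and Pdgfa was above Pdgfd in 5 of 10 libraries. Per kb of the longest transcript, in place of merged exons, Pdgfd moved behind Pdgfb and Pdgfra here (14.7 ± 4.56, against 16.7 ± 6.31 and 15.0 ± 10.8), while in PSCs and S100β-GFP+ cells the order was as given.
In S100β-GFP+ cells it was Pdgfra (17.1 ± 6.24, n = 8), Pdgfrb (15.0 ± 8.27), Pdgfd (11.5 ± 5.19), Pdgfa (6.29 ± 2.46), Pdgfb (3.61 ± 3.29) and Pdgfc (2.88 ± 2.04), and all neighbours in this order had overlapping ranges. No gene led there as Pdgfa did in PSCs.

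As a share of the summed ligand level per kb, Pdgfa made up 95.6% ± 2.80 in PSCs (90.6% to 98.3% over 9 libraries). It made up 28.1% ± 9.76 in S100β-GFP+ cells, in which Pdgfd held the largest mean share (46.3% ± 5.81), and 39.9% ± 12.3 in NG2-dsRed+ cells, with Pdgfd at 33.1% ± 5.93 and Pdgfb at 26.5% ± 6.99. The order of these last shares also turned with the longest transcript (25.4% ± 5.00 for Pdgfd and 28.5% ± 7.99 for Pdgfb). The sum over the 4 ligands was 251 ± 58.8 CPM per kb in PSCs, 24.2 ± 9.84 CPM per kb in S100β-GFP+ cells and 43.1 ± 8.66 CPM per kb in NG2-dsRed+ cells.
PSCs, highest for the ligand sum, were lowest for the receptor sum. The receptor sum was 4.22 ± 2.32 CPM per kb in PSCs, 32.1 ± 13.4 CPM per kb in S100β-GFP+ cells and 133 ± 33.5 CPM per kb in NG2-dsRed+ cells. Pdgfrb held 90.9% ± 8.89 of it in NG2-dsRed+ cells, 44.9% ± 9.82 in S100β-GFP+ cells and 68.5% ± 11.4 in PSCs.

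**Figure D3:**
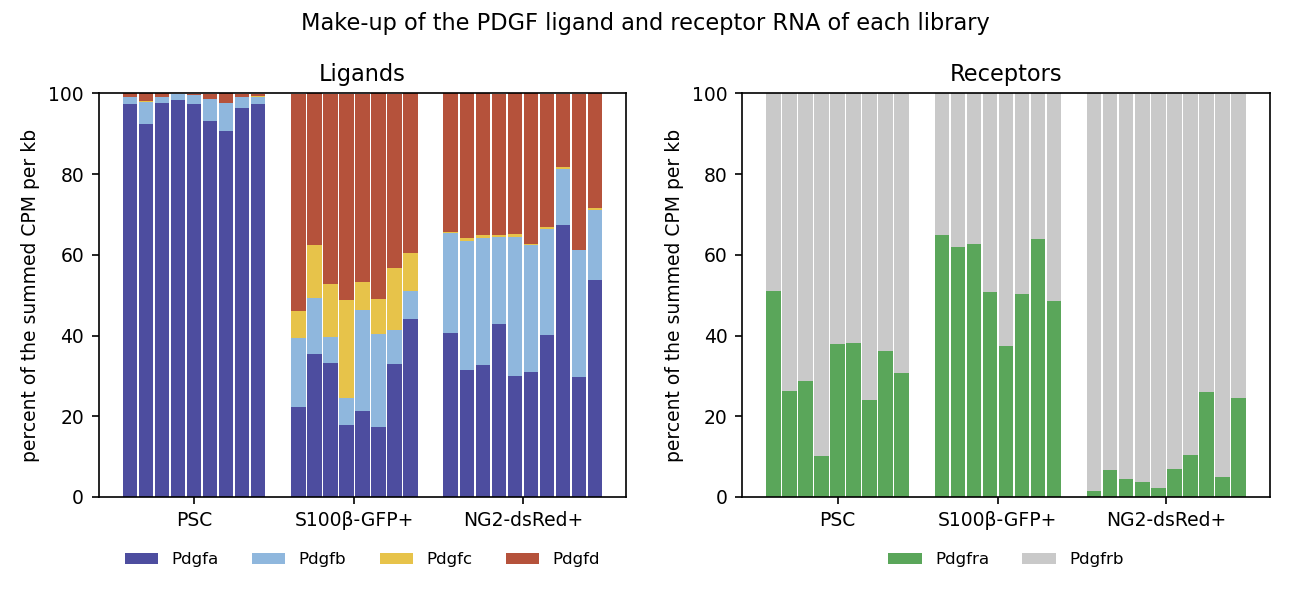
Stacked bars, 1 per library in order of library number within each group, of the percent of the summed CPM per kb held by each PDGF ligand (left) and receptor (right). Pdgfa fills between 90.6% and 98.3% of every PSC bar, and Pdgfrb fills between 74.0% and 98.5% of every NG2-dsRed+ bar.

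Members were then set against marker sums among libraries of 1 group, where differences between groups play no part. In all, 12 relations were computed (Pdgfra with fibroblast, Pdgfrb with mural, Pdgfb with endothelial and Pdgfa with Schwann lineage markers, each in 3 groups), on the log2 scale with two-sided permutation tests.
In the 10 NG2-dsRed+ libraries Pdgfra rose with the fibroblast marker sum (Pearson r = 0.961, permutation p = 4e-05, adjusted p = 0.00024, and Spearman rho = 0.927, permutation p = 0.00033, adjusted p = 0.00198), and r was 0.920 without the 2 libraries farthest from the median sum, libraries 2 and 15. Pdgfrb rose with the mural marker sum (r = 0.924, permutation p = 0.00012, adjusted p = 0.00048, and rho = 0.939, permutation p = 0.00025, adjusted p = 0.00198), with r = 0.830 without the 2 farthest. Pdgfb rose with the endothelial marker sum (r = 0.970, permutation p = 4e-05, adjusted p = 0.00024, and rho = 0.903, permutation p = 0.00096, adjusted p = 0.00384), with r = 0.810 without the 2 farthest, libraries 28 and 35. Libraries 28 and 35 had the highest fibroblast and the lowest mural and endothelial marker sums of the group, so these relations are not separate. Pdgfra, Pdgfrb and Pdgfb of NG2-dsRed+ libraries thus varied together with the markers of fibroblasts, mural cells and endothelium, in that order, and whether the share of such cells set them was not tested.
In the 9 PSC libraries Pdgfrb rose with the mural marker sum (r = 0.791, exact permutation p = 0.0108, adjusted p = 0.0288, and rho = 0.900, exact permutation p = 0.00203, adjusted p = 0.00608), but without the 2 farthest libraries, 4 and 18, r was 0.736 and no longer passed (adjusted p = 0.147). Of this sum, with a median of 727 CPM in PSCs, Mcam alone was at 306 ± 106 CPM. Mcam was at 222 ± 71.6 CPM in NG2-dsRed+ cells and 26.2 ± 18.5 CPM in S100β-GFP+ cells. The relation without Mcam was not tested. Pdgfra with the fibroblast marker sum did not pass in PSCs (r = 0.533, exact permutation p = 0.138, adjusted p = 0.165, and rho = 0.700, exact permutation p = 0.0433, adjusted p = 0.0865), but without the 2 farthest libraries, 20 and 34, it did (r = 0.907, adjusted p = 0.0405).
Pdgfa with the Schwann lineage marker sum did not pass in PSCs (r = -0.103, exact permutation p = 0.79, adjusted p = 0.79, and rho = -0.217, exact permutation p = 0.581, adjusted p = 0.634). The spread of Pdgfa over PSC libraries was 2.20-fold from the lowest to the highest, and that of the marker sum was 1.67-fold.
In the 8 S100β-GFP+ libraries, r was 0.812 for Pdgfrb with mural markers (exact permutation p = 0.012, adjusted p = 0.0288) and rho was 0.762 (exact permutation p = 0.0368, adjusted p = 0.0865), and for Pdgfb with endothelial markers r was 0.819 (exact permutation p = 0.0159, adjusted p = 0.0318) and rho 0.476 (exact permutation p = 0.243, adjusted p = 0.3). Without the 2 farthest libraries neither passed, at r = 0.609 for Pdgfrb without libraries 3 and 17 (n = 6, exact permutation test, adjusted p = 0.375) and r = 0.166 for Pdgfb without libraries 17 and 22 (n = 6, exact permutation test, adjusted p = 0.717). The remaining 4 of the 12 relations did not pass, at r between 0.532 and 0.592.

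**Figure D4:**
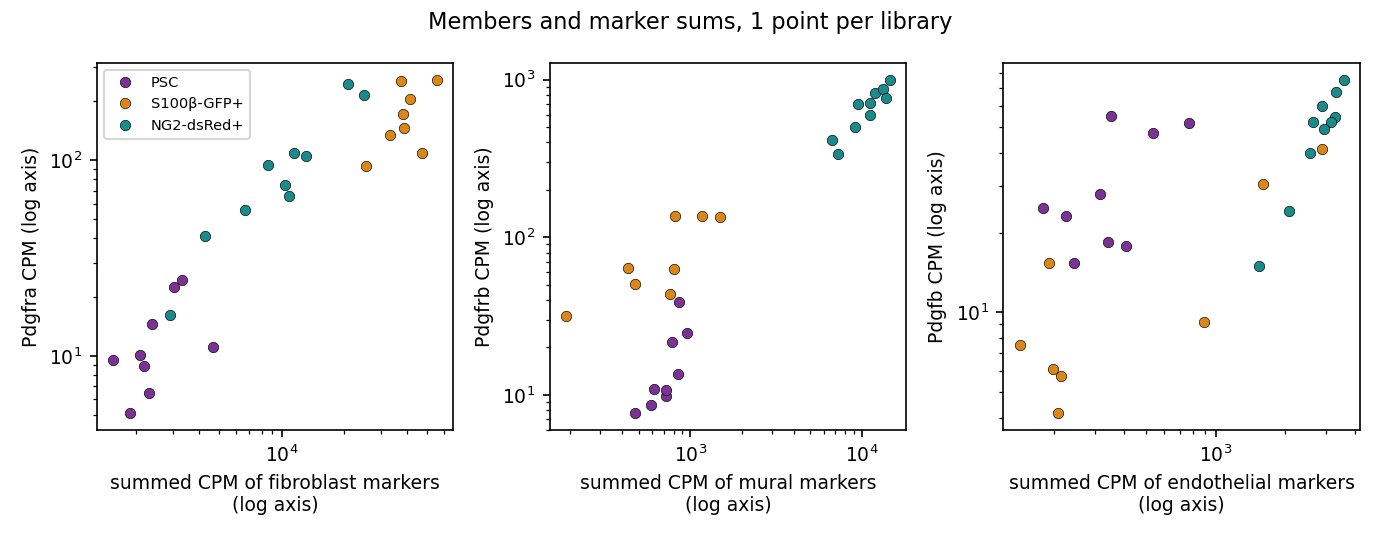
CPM of Pdgfra, Pdgfrb and Pdgfb (log axes) against the summed CPM of fibroblast, mural and endothelial markers, with 1 point per library of PSCs (9), S100β-GFP+ cells (8) and NG2-dsRed+ cells (10). Points of NG2-dsRed+ cells rise from left to right in all 3 panels (r = 0.961, 0.924 and 0.970).

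The genes with the most similar pattern were taken by Pearson r of log2 CPM over all 27 libraries, which mostly reflects the differences between groups and is given as a description. Nearest to Pdgfa were Dag1, which encodes dystroglycan (r = 0.980), Hs2st1, a heparan sulphate sulphotransferase (r = 0.973), and Ajap1 (r = 0.969). Dag1 was at 2966 ± 495 CPM in PSCs, 280.3 ± 75.0 CPM in S100β-GFP+ cells and 364 ± 40.1 CPM in NG2-dsRed+ cells, so that it followed the order of Pdgfa with a smaller range.
Nearest to Pdgfrb were Steap4 (r = 0.990), Ndufa4l2 (r = 0.982), which is one of the mural markers, and Rbpms (r = 0.977). Nearest to Pdgfra were the collagen VI genes Col6a1 (r = 0.968) and Col6a2 (r = 0.966) and the fibroblast marker Dcn (r = 0.967), which encodes decorin.
The other ligands had their own neighbours. These were Ptprm (r = 0.949), Cdc42ep1 (r = 0.912) and Tmem109 (r = 0.900) for Pdgfb, 1700019D03Rik (r = 0.938), Lgi3 (r = 0.931) and Cxcl13 (r = 0.914) for Pdgfc, and Fat4 (r = 0.977), Ebf3 (r = 0.963) and Mrtfb (r = 0.962) for Pdgfd.

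Other genes of the pathway were read from 4 lists of 61 genes, of which 57 passed the filter. Of these, 10 were higher (17.5%, against 22.9% of all genes) and 28 were lower (49.1%, against 24.1%) in PSCs when set against S100β-GFP+ cells. Against NG2-dsRed+ cells, 3 were higher (5.26%, against 20.9%) and 31 were lower (54.4%, against 23.1%). The counts of higher genes were less firm than those of lower genes, with 6 in place of 3 by DESeq2, with its size factors in edgeR or with the Lars2 share as a term, and 16 in place of 10 without S100β-GFP+ libraries 14, 17 and 22. Between S100β-GFP+ and NG2-dsRed+ cells, 17 were higher (29.8%, against 18.1%) and 21 were lower (36.8%, against 15.2%).

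Among the relatives of the family (VEGF and CSF1 ligands and the receptors next to PDGFR), 14 were tested. In PSCs 0 were higher and 9 were lower than in S100β-GFP+ cells by edgeR, with a median log2 fold change of -1.79, and 0 were higher and 12 were lower than in NG2-dsRed+ cells, with a median of -2.09. Lower calls made up 64.3% and 85.7% of this list, against 24.1% and 23.1% of all genes, of which 22.9% and 20.9% were called higher. At an unadjusted p under 0.05 the counts of higher relatives were also 0 in both comparisons, as they were by DESeq2.
Csf1r, the CSF1 receptor of macrophages, had the largest fall against S100β-GFP+ cells, from 199 to 1.36 CPM (log2 fold change -7.18 ± 0.44, edgeR adjusted p = 1.36e-13). Macrophage and leukocyte marker sums were at least 1337 CPM in S100β-GFP+ libraries and at most 570.1 CPM in PSC libraries. Most of that PSC maximum was Lyz2 (566 CPM), and 6 of the 10 markers had a mean under 1 CPM in PSCs. Csf1r was followed by the lymphangiogenic factor Vegfd (log2 fold change -6.48) and the angiogenic factor Vegfa (-3.36). Vegfd, 1 of the 9 lower relatives, passed the filter only through the S100β-GFP+ libraries. This favoured its difference from them in advance, so that call is not separate evidence. Against NG2-dsRed+ cells the largest falls were those of Vegfc (-4.31), the CSF1R ligand Il34 (-3.87) and placental growth factor, Pgf (-3.44). None of these 6 genes had overlapping libraries in the comparison named. Every PSC library was below every S100β-GFP+ library for 10.3% of all genes, and below every NG2-dsRed+ library for 8.83%. The 6 were named for the size of their falls in the same libraries, so their separation is only a description.

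Of 8 genes that cut or bind the ligands, 8 were lower in PSCs when set against S100β-GFP+ cells and 4 were lower than in NG2-dsRed+ cells, with 0 higher in either by edgeR (median log2 fold changes of -2.38 and -0.90). Lower calls made up 100% and 50% of this list, against 24.1% and 23.1% of all genes, of which 22.9% and 20.9% were called higher. Against S100β-GFP+ cells 0 were higher at an unadjusted p and by DESeq2, and against NG2-dsRed+ cells 1 was higher by each of these. The urokinase gene Plau was at 0.517 CPM in PSCs, 15.6 CPM in S100β-GFP+ cells (log2 fold change -4.87 ± 0.49, edgeR adjusted p = 1.63e-09) and 4.34 CPM in NG2-dsRed+ cells (-3.02 ± 0.46, adjusted p = 3.29e-06). The tissue plasminogen activator gene Plat was at 8.92 CPM in PSCs, against 195 CPM in S100β-GFP+ cells (-4.45 ± 0.30, adjusted p = 7.12e-13) and 95.2 CPM in NG2-dsRed+ cells (-3.42 ± 0.28, adjusted p = 4.29e-11). In PSCs both activator genes were thus lower than in either other group, as was Pdgfd.
The proprotein convertase gene Pcsk6 was at 19.2 CPM in PSCs and 236 CPM in S100β-GFP+ cells (log2 fold change -3.62 ± 0.35, adjusted p = 5.92e-10). The co-receptor gene Nrp1 was at 59.6 CPM in PSCs and 470.2 CPM in NG2-dsRed+ cells (-2.98 ± 0.26, adjusted p = 1.42e-10).

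Of 25 genes of receptor signalling, 5 were higher and 7 were lower in PSCs when set against S100β-GFP+ cells, and 2 were higher and 11 were lower than in NG2-dsRed+ cells. The first 2 shares (20.0% and 28.0%) were near those of all genes (22.9% and 24.1%), and the others were 8.00% and 44.0% (20.9% and 23.1% of all genes). Their median log2 fold changes were -0.16 and -0.31, smaller than those of the lists above. The kinase gene Src was higher in PSCs (49.4 CPM) than in S100β-GFP+ cells (16.3 CPM, log2 fold change 1.60 ± 0.22, edgeR adjusted p = 6.15e-07) and NG2-dsRed+ cells (20.9 CPM, 1.24 ± 0.20, adjusted p = 1e-05).
The adaptor gene Gab1 (log2 fold change 1.59) and the adaptor gene Nck2 (0.81, adjusted p = 0.0413) were also higher in PSCs against S100β-GFP+ cells, and the kinase gene Fyn (0.48, adjusted p = 0.00715) was higher than in NG2-dsRed+ cells. The largest falls were those of Pik3cb (-1.62), Shc1 (-1.23) and Grb2 (-1.09) against S100β-GFP+ cells and of Slc9a3r2 (-2.56), Pik3cb (-2.21) and Plcg1 (-1.67) against NG2-dsRed+ cells. These encode a catalytic subunit of PI3-kinase, adaptors, a scaffold and a phospholipase that act below many receptor tyrosine kinases.

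Of 10 genes that dampen receptor signalling, 5 were higher and 4 were lower in PSCs when set against S100β-GFP+ cells, and 1 was higher and 4 were lower than in NG2-dsRed+ cells. The first 2 shares were 50% and 40% (22.9% and 24.1% of all genes), and the others were 10% and 40% (20.9% and 23.1% of all genes). By DESeq2, and by edgeR at an unadjusted p under 0.05, 3 were higher than in NG2-dsRed+ cells. Ptprj, a receptor phosphatase that acts on PDGF receptors, was higher in PSCs in both comparisons, at 90.2 CPM in PSCs against 46.0 CPM in S100β-GFP+ cells (log2 fold change 0.97 ± 0.27, edgeR adjusted p = 0.0037) and 7.95 CPM in NG2-dsRed+ cells (3.50 ± 0.27, adjusted p = 1.43e-11). Every PSC library was above every NG2-dsRed+ library for Ptprj, as for 5.08% of all genes.
The Sprouty gene Spry4 lay between the other groups, higher in PSCs against S100β-GFP+ cells (log2 fold change 1.88 ± 0.31, adjusted p = 1.15e-05) and lower than in NG2-dsRed+ cells (-1.18 ± 0.29, adjusted p = 0.00116). Spry2 was higher than in S100β-GFP+ cells (1.01, adjusted p = 0.000125) and Spry1 was lower than in NG2-dsRed+ cells (-2.17, adjusted p = 3.15e-07). The ubiquitin ligase gene Cblb was lower in PSCs in both comparisons (-2.55 and -1.67), and the phosphatase genes Ptpn1 (-1.07) and Ptpn2 (-0.92) were lower than in S100β-GFP+ cells.

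**Figure D5:**
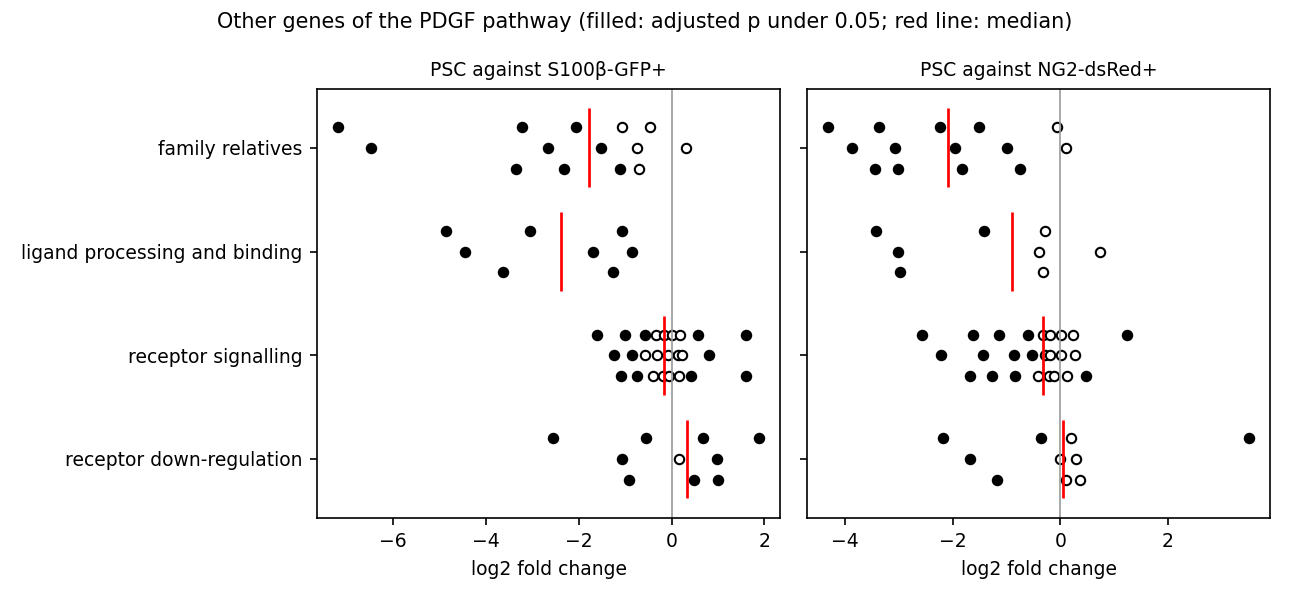
log2 fold changes of the 57 pathway genes tested, by list, in PSCs against S100β-GFP+ cells (left) and NG2-dsRed+ cells (right). Each point is 1 gene, filled where the edgeR adjusted p was under 0.05, and red lines are list medians, which for family relatives were -1.79 and -2.09.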

How the data were processed

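RNA of FACS-sorted cells was amplified with a SMART-Seq v4 kit and sequenced. Reads were trimmed and then aligned by the authors with HISAT2 to GRCm38 (per the submitters' processing notes). HTSeq gave whole-number counts per gene, which the authors deposited without normalization. Tool versions, the annotation and whether strand was used are not given in these sources. Copies made by PCR are counted as if they were separate molecules, and genes at a few CPM rest on few counts. Columns were matched to samples by the library number in the titles, and 9 libraries of the 36 in the labels were not analysed here. No 2 libraries were identical, and pairs of a group differed by more than sampling noise (lowest chi-square divided by its degrees of freedom, 8.10).

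Counts were tested with edgeR 4.0.16 (R 4.3.3) after TMM scaling, with filterByExpr (minimum count 10), 1 quasi-likelihood fit of the 3 groups and Benjamini-Hochberg adjustment at 0.05. CPM used TMM library sizes, and log2 CPM for correlations a prior count of 2. The standard error of a log2 fold change was its size over the root of F. Symbols, positions, overlaps and exon lengths were read from GENCODE M21 (GRCm38), where 99.56% of the 52636 identifiers were found. Primer sequences came from the study's supplement. Correlations used exact permutations for fewer than 10 libraries and 100000 permutations otherwise.

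The members, pathway lists and marker lists were chosen with earlier results of these data known. Named were the 6 members, of each pathway list the 3 largest called rises and falls in PSCs in each comparison, the 3 nearest genes of each member, and the sort genes. The fit was also tested on simulated data, in which 200 genes had known changes in PSCs, as many up as down. Far more genes were called in the real comparisons, so the simulation does not show how the scaling holds there. Alternatives were DESeq2 1.42.0, its size factors in edgeR, no filter, only the groups compared, the Lars2 share (percent of counts on Gm15564, Gm23935 and Lars2) as a term, the longest transcript as length, leaving out each library, and leaving out S100β-GFP+ libraries 14, 17 and 22. The S100β-GFP+ libraries 14, 17 and 22 had the highest endothelial marker sums and the highest Pdgfrb of their group. Leaving out NG2-dsRed+ libraries 28 and 35 was added after seeing the data. No test compared the pathway lists with other genes.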

Additional observations from a re-analysis of the deposited data

Results flagged for a closer look

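Pdgfc in the S100β-GFP+ libraries had 1 library far from the rest. Library 14 was at 39.3 CPM, and the next highest of the 8 libraries was at 13.9 CPM. The ends of 18 sets of values (6 genes in 3 groups) were examined with Dixon's gap and this was the only one past its 95% critical value, while chance alone gives about 1 in 20. Library 14 also had the highest fibroblast marker sum of the group, 55703 CPM, whose part in this value was not tested. Without library 14 the log2 fold change of Pdgfc in PSCs against S100β-GFP+ cells was -3.72, in a fit whose filter Pdgfc again passed through the S100β-GFP+ libraries.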

How the results depend on the processing

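No paired analysis was possible, because the labels do not tell which libraries, if any, came from the same mouse. The library numbers are unique over the 3 groups and give no such link. The tests took all libraries as independent, which would not hold for libraries of the same mouse. Of the 18 member comparisons, all kept their direction under every alternative that gave a value and every fit without 1 library. With only PSCs and NG2-dsRed+ cells in the fit Pdgfc did not pass the filter. Calls changed in 2 of them. Pdgfb in PSCs against S100β-GFP+ cells had a log2 fold change of 1.05 with only the groups compared, no longer past the threshold, and between 0.93 and 1.48 when 1 library was left out, and in 7 of 27 such fits its adjusted p was above 0.05. Pdgfra in S100β-GFP+ against NG2-dsRed+ cells was between 0.63 and 1.02 when 1 library was left out and 1.33 without NG2-dsRed+ libraries 28 and 35. DESeq2, its size factors and the Lars2 share as a term changed no call of a member. Without the filter Pdgfc and the other members kept their calls, while the genes called over all rose to 16556 for PSCs against S100β-GFP+ cells (3907 higher, 12649 lower, against 3511 and 3687) and to 10586 for S100β-GFP+ against NG2-dsRed+ cells (8194 higher, 2392 lower, against 2771 and 2328) among 44705 genes. For PSCs against NG2-dsRed+ cells they were 8101 (3751 higher, 4350 lower, against 3197 and 3546). In that fit the median log2 fold change of all genes was -0.97, 0.78 and 0, in this order, and the cause was not tested. Pathway genes called numbered between 31 and 42 in every comparison and alternative, with 9 to 16 higher and 25 to 29 lower in PSCs against S100β-GFP+ cells and 3 to 6 higher and 28 to 32 lower against NG2-dsRed+ cells.

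Without the 2 libraries farthest from the median of the marker sum, r reversed to -0.291 for Pdgfra with fibroblast markers in S100β-GFP+ cells and to 0.216 for Pdgfa with Schwann lineage markers in PSCs, neither past the threshold before or after. It rose to 0.907 and past the threshold for Pdgfra with fibroblast markers in PSCs (exact permutation test, adjusted p = 0.0405). It no longer passed for Pdgfrb with mural markers in PSCs (0.736) and S100β-GFP+ cells (0.609) and for Pdgfb with endothelial markers in S100β-GFP+ cells (0.166). The causes were not tested.

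Levels per kb rest on the length used. With the longest transcript in place of merged exons 5 of 18 levels moved by more than 1 SD, namely Pdgfa in PSCs (365 CPM per kb), S100β-GFP+ cells (9.52) and NG2-dsRed+ cells (24.9), Pdgfb in NG2-dsRed+ cells (16.7) and Pdgfra in S100β-GFP+ cells (25.1), and Pdgfd moved from the third to the fifth place in NG2-dsRed+ cells. Depth limits Pdgfc in PSCs and NG2-dsRed+ cells (68 counts in each), and Pdgfd in PSC library 18 (3 counts). Replicates were separate mice, and whether 1 mouse gave libraries of several groups is not stated.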
